A study of Homo sapiens with 12 samples.

Results

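The sterol and fatty acid synthesis genes examined here are 33 named genes of lipid metabolism, out of 58233 genes listed for HL‐60 cells. They were taken by symbol from a list drawn up with earlier results of these data known. HL‐60 is an established acute myeloid leukaemia cell line with promyelocytic features. The 33 genes fall into 5 roles, with 7 mevalonate and isoprenoid enzymes, 11 sterol enzymes, 6 genes of the SREBP system and sterol transfer, 4 fatty acid synthesis enzymes, and 5 genes made up of the LXR receptors and their targets. RNA was sequenced in 12 libraries of wild‐type HL‐60 cells, all after 3 h. The 4 groups of 3 libraries were untreated cells, cells given 100 nM ATRA (all‐trans retinoic acid, a ligand of the retinoic acid receptors), cells given 500 nM palbociclib (an inhibitor of the cell cycle kinases CDK4 and CDK6), and cells given both drugs at these doses. The comparisons ask which of these genes each drug changed, and whether the combination differed from either drug alone. A single cell line was sampled at a single time, and the labels do not say whether libraries of a group came from separate cultures. The p-values therefore set group differences against the spread between these libraries, and whether they hold for other cultures is unknown.

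Cholesterol and fatty acids are both built from acetyl‐CoA. Acetyl‐CoA passes through the mevalonate pathway to isoprenoids, then to squalene and, through a chain of sterol enzymes, to cholesterol, while a parallel route carboxylates it and builds saturated and monounsaturated fatty acids. SREBP transcription factors are kept in the endoplasmic reticulum by SCAP and the INSIG proteins when sterol is plentiful, and reach the nucleus to activate most of these enzymes when sterol is scarce. LXR receptors respond to oxysterols, which form when cholesterol accumulates, and activate export and lipogenic genes. Because LXR, like the retinoic acid receptors, works as a partner of RXR, its targets are of interest in retinoid‐treated myeloid cells.

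Values are RPKM, read numbers scaled for gene length and library size, which the authors rounded to whole numbers. A step of 1 RPKM is therefore the smallest difference that can be seen, and a gene listed at 0 lies below that step. Of the 33 genes, 26 reached at least 5 RPKM in at least 3 libraries and were tested, among 7820 genes in all. The other 7, namely CYP51A1, TM7SF2, HSD17B7, INSIG2, NR1H3, ABCA1 and ABCG1, lay below this filter and are given by their values only. Library sums ran from 358455 to 390247 RPKM, and these sums do not give the depth, which is unknown per library. No library pair of 66 was a duplicate, with 12.69 to 45.14% identical values over the tested genes. Promyelocytic markers were present, with MPO at 1077 to 1579 RPKM and PRTN3 at 195 to 310, although ELANE lay at 0 or 1. The markers of T, B, liver, fat and epithelial cells (CD3D, CD3E, MS4A1, ALB, ADIPOQ and EPCAM) were at 0 in all libraries. Treatment was visible in genes outside the lipid lists, since DHRS3, a retinol‐handling reductase, lay at 0 or 1 without ATRA and at 40 to 50 with it. Of the other retinoid response genes listed, HIC1 lay at 0 without ATRA and at 8 to 12 with it, while CYP26A1, CYP26B1, RARB and TGM2 were at 0 in all libraries. CCNE1, which encodes cyclin E1, lay at 13 to 15 in untreated cells and at 5 in each of the 3 palbociclib libraries. It was also lower with ATRA alone, at 8 or 9, so it is not particular to palbociclib. In these bulk samples, fewer expressing cells and less RNA per cell cannot be told apart.

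To show what the promoters of these genes hold, 300 bases around each RefSeq transcription start (250 before and 50 after, GRCh38.p14) were searched on both strands. Promoters were found for 28 of the 33 genes. ACAT2, FDFT1, SQLE, ABCG1 and FASN had no entry. The motifs were the sterol regulatory element TCACNCCAC, to which SREBP binds, the NF‐Y box CCAAT, whose factor is known to act beside SREBP, the E‐box CACGTG, and direct repeats of the nuclear receptor core site AGGTCA spaced by 4 bases (DR4, an LXR element) or 5 bases (DR5, a retinoic acid receptor element). The stretches printed here belong to the 3 genes that changed with treatment and had bases free of protein‐coding exons (MYLIP, SREBF1, EBP), to the pair with large differences between replicate numbers (HMGCS1, INSIG1), to the one gene with a sterol regulatory element (SREBF2), and to a gene without any of these motifs (PMVK). Each is read 5′ to 3′ on the gene's strand, without bases of annotated protein‐coding exons, and capitals mark the motifs. ATTGG is the NF‐Y box on the opposite strand.
MYLIP: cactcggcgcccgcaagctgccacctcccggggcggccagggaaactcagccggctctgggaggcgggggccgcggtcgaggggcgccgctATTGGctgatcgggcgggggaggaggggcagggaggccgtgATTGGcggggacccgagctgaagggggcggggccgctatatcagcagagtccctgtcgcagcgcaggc
SREBF1: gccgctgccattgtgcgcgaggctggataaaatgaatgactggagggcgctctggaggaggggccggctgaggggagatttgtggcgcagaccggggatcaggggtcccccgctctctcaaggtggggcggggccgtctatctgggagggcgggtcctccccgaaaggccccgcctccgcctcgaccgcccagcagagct
EBP: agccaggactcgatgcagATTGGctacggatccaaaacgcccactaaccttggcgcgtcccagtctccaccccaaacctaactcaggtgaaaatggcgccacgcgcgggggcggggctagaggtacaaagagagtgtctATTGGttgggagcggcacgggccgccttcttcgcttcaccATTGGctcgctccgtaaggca
HMGCS1: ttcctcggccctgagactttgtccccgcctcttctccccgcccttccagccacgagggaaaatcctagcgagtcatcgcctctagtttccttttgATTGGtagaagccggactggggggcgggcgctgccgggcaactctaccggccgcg
INSIG1: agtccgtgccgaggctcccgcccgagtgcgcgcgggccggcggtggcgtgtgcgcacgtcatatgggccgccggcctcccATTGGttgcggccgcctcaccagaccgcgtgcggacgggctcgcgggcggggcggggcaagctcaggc
SREBF2: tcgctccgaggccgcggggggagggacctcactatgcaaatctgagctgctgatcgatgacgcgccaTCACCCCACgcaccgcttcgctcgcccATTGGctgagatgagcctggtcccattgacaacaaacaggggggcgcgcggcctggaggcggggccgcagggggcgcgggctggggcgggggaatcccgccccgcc
PMVK: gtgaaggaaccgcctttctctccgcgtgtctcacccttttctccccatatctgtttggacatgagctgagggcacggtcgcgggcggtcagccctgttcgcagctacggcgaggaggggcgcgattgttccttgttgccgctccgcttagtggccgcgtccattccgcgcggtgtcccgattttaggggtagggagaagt
These stretches lie at chr6:16128886-16129085 (plus strand) for MYLIP, chr17:17837003-17837202 (minus strand) for SREBF1, chrX:48521599-48521798 (plus strand) for EBP and chr5:43313513-43313662 (minus strand) for HMGCS1. Those of INSIG1, SREBF2 and PMVK lie at chr7:155297628-155297775 (plus strand), chr22:41832905-41833104 (plus strand) and chr1:154936720-154936919 (minus strand). EBP carried 3 NF‐Y boxes, beginning 191, 70 and 30 bases before its start, and MYLIP carried 2, beginning 109 and 68 bases before it. SREBF2 held the sterol regulatory element 133 bases before its start and an NF‐Y box 106 bases before it, with no overlap between them.

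The NF‐Y box was the frequent motif. It stood in the promoters of 21 of the 28 lipid genes (75.0%), against 39.7% of 27305 genes with a promoter of the same length. By role, it was present in 5 of 6 mevalonate genes, 8 of 9 sterol enzymes, 3 of 6 genes of the SREBP system, 3 of 3 fatty acid genes and 2 of 4 genes of the LXR group. The strict sterol regulatory element was found in SREBF2 alone (3.57%, against 1.39% of all genes). The E‐box was found in ABCA1, INSIG1, LSS, SC5D and SCAP (17.9%, against 8.77%). No promoter of these genes held a DR4 or DR5 in this strict spelling, which 0.0256% and 0.00732% of all genes held. These shares describe letters in a short window and are not evidence of binding.

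In untreated cells the genes ranged from abundant to listed at 0. SCD, the desaturase that makes monounsaturated fatty acids, was the most abundant at 141 ± 30.1 RPKM (SD, n = 3), and ACLY, which makes cytosolic acetyl‐CoA, followed at 88 ± 4.36. Next came FDFT1 (squalene synthase) at 63 ± 9.54, HMGCS1 (HMG‐CoA synthase) at 62.7 ± 18.5, FDPS (farnesyl diphosphate synthase) at 59 ± 3, FASN (fatty acid synthase) at 52.7 ± 8.96 and EBP (a sterol isomerase) at 49 ± 3.61. From FDFT1 to EBP, neighbours in this order differed by less than the larger of their SDs. Among the regulators, SREBF2, the SREBP gene of the cholesterol branch, stood at 32.7 ± 3.79 RPKM and SREBF1, the SREBP gene with the lipogenic isoform, at 8.67 ± 2.89, and their libraries did not overlap. INSIG1, the ER anchor of SCAP, lay at 29.7 ± 11.5 RPKM, and its relative INSIG2 at 3.33 ± 0.577. Of the LXR pair, NR1H2 (LXR‐beta) was at 11 RPKM in all 3 untreated libraries, while NR1H3 (LXR‐alpha) was listed at 0, 0 and 1. The sterol exporter gene ABCG1 was listed at 0 in all 12 libraries.

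Most of these genes shared a pattern over the replicate numbers. Replicate 2 of each group had the highest value of its group in all 4 groups for 19 of the 26 tested genes (73.1%), against 2.83% of all tested genes. Replicate 1 held that place for 0 of the 26 (6.93% of all tested genes), and replicate 3 for SCAP alone (2.48%). Summed over the 33 genes, the level was 767, 1009 and 796 RPKM in untreated replicates 1 to 3, and 702, 929 and 772 with ATRA. With palbociclib the sums were 681, 906 and 764, and with both drugs 692, 920 and 768. The second library of every group thus stood above both others, also above every library 1 and 3 of the other groups.

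**Figure D1:**
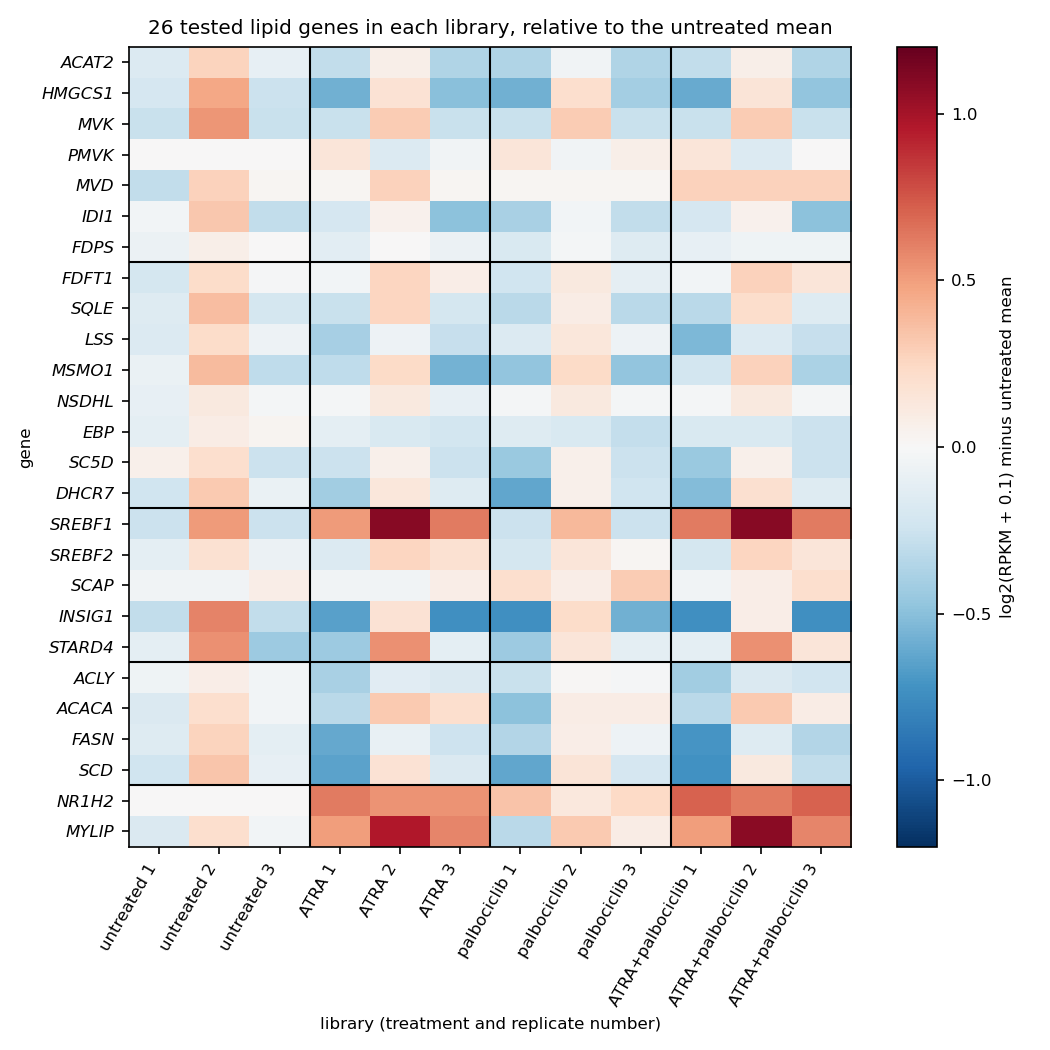
Heat map of the 26 tested genes (vertical axis, grouped by role from mevalonate enzymes at the top to the LXR group at the bottom) in the 12 libraries (horizontal axis), as log2(RPKM + 0.1) minus the mean of the 3 untreated libraries. The second column of each block of 3 is redder for most genes, and NR1H2, MYLIP and SREBF1 are redder in the ATRA and combination blocks.

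INSIG1, which SREBP itself activates, showed this most. Its values were 23, 43 and 23 RPKM in untreated cells, 18, 32 and 17 with ATRA, 17, 33 and 19 with palbociclib, and 17, 30 and 17 with both drugs. Replicate 2 was thus 1.76 to 1.87 times the mean of the other two in every group. HMGCS1, the entry enzyme of the mevalonate pathway, read 53, 84 and 51 RPKM untreated, 41, 69 and 43 with ATRA, 41, 70 and 46 with palbociclib, and 40, 68 and 44 with both, a ratio of 1.61 to 1.64. In the enzyme of monounsaturated fatty acids, SCD, the values were 118, 175 and 130 RPKM untreated, 89, 157 and 123 with ATRA, 90, 155 and 121 with palbociclib, and 84, 151 and 113 with both. For all 3 genes the difference between replicate 2 and its group was larger than any difference between group means.

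Across the 26 genes the median excess of replicate 2 over the mean of replicates 1 and 3, on the log2(RPKM + 0.1) scale, was 0.37 in untreated cells, 0.35 with ATRA, 0.30 with palbociclib and 0.40 with both drugs, against 0 for all tested genes in each group. By role, replicate 2 was highest in all 4 groups for 4 of 7 mevalonate enzymes, 7 of 8 sterol enzymes, 4 of 5 genes of the SREBP system, 3 of 4 fatty acid enzymes and 1 of 2 genes of the LXR group. NR1H2, SCAP (the SREBP escort protein) and PMVK (phosphomevalonate kinase) had replicate 2 highest in 0 groups. PMVK read 38, 38 and 38 RPKM untreated, 42, 34 and 37 with ATRA, 42, 37 and 40 with palbociclib, and 42, 34 and 38 with both, so its replicate 2 was the lowest of each treated group. The 18 tested genes with an NF‐Y box in the promoter had a median excess of 0.38 and the 4 without one (SREBF1, SCAP, NR1H2 and PMVK) a median of -0.07, although SREBF1, with 0.47 to 0.77, was high without a box. Replicate 2 was highest in all 4 groups for 14 of the 18 and 1 of the 4. With a box, EBP, FDPS and NSDHL had a mean excess of only 0.05, 0.09 and 0.16. ACAT2, FDFT1, SQLE and FASN had no promoter entry and are in neither set. A part of the box in this pattern was not tested. What the libraries numbered 2 share is not stated in the labels. The share of mitochondrial transcripts in replicate 2 of the ATRA, palbociclib and combination groups (24.37 to 26.62%) lay above that of every library numbered 1 or 3 (21.62 to 23.96%), while that of untreated replicate 2 (23.53%) lay within their range. Its part in this pattern was not tested.

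**Figure D2:**
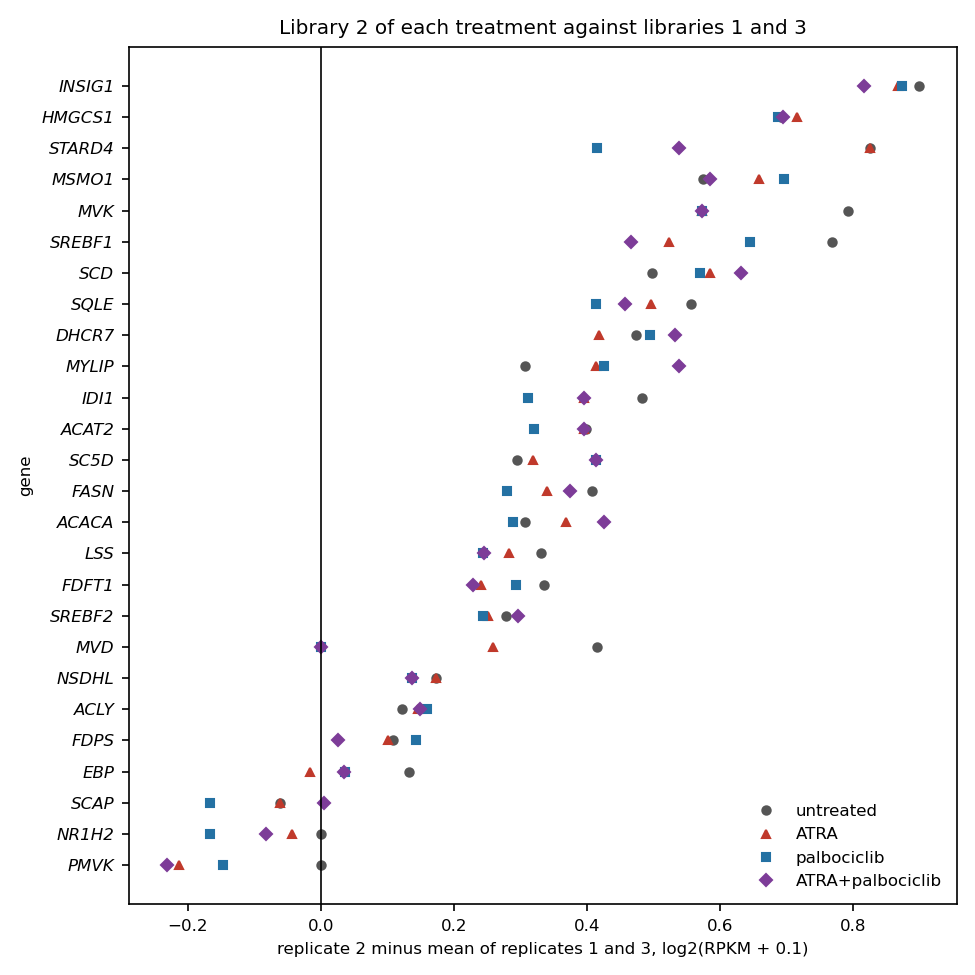
Replicate 2 minus the mean of replicates 1 and 3 in each group (horizontal axis, log2(RPKM + 0.1) scale, 1 point per group) for the 26 tested genes (vertical axis). INSIG1 lies farthest to the right in all 4 groups, and NR1H2, SCAP and PMVK lie at or below 0 except SCAP with both drugs (0.0049).

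This spread sets how small a treatment difference the test could call. The median residual SD within groups was 0.243 (log2) for the 26 genes and 0.134 for all tested genes. With the replicate number as a term in the model, it was 0.065 for the 26 genes and 0.0946 for all tested genes. Calls below are from limma, at a Benjamini-Hochberg adjusted p under 0.05 over all 7820 genes, and fold changes are on the log2(RPKM + 0.1) scale. Calls and intervals are from the fit without the replicate number unless the replicate block, the fit with it, is named.

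ATRA alone raised 2 of the 26 genes, NR1H2 and MYLIP, and lowered 0 (5 genes at an unadjusted p under 0.05). Over all tested genes 20.3% were called in this comparison, and 33.1% had an unadjusted p under 0.05. The median log2 fold change was -0.07 over the 26 genes and -0.01 over all tested genes, with 16 of the 26 below 0 and 7 above. None of the 7 mevalonate enzymes, 8 sterol enzymes, 5 genes of the SREBP system and 4 fatty acid enzymes was called, and both tested genes of the LXR group were. With the replicate block, 9 of the 26 genes were called lower and 3 higher (20.7% and 14.7% of all tested genes). The replicate numbers are not shown to pair untreated with treated libraries, so the absence of calls and these calls both depend on the model.

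NR1H2 (ENSG00000131408, chr19:50329653-50383388, plus strand, hg38) encodes LXR‐beta, the widely expressed LXR. It read 11, 11 and 11 RPKM in untreated cells and 17, 16 and 16 with ATRA, with no overlap between the groups. The log2 fold change was 0.57 (SE 0.0625, 95% interval 0.43 to 0.70, 1.48‐fold, limma adjusted p = 0.00012), and the call held under all 21 alternative settings. On the opposite strand the gene NAPSA shares 1182 exon bases with NR1H2, which is 22.1% of the NR1H2 exon bases. NAPSA was at 0 in the untreated and palbociclib libraries and at 2 or 3 RPKM in the ATRA and combination libraries. The library kit is not stated to keep the strand, so reads in the shared bases cannot be assigned to either gene, and their part in the result was not tested.

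MYLIP (ENSG00000007944, chr6:16129086-16148248, plus strand) encodes an LXR‐induced ubiquitin ligase that marks lipoprotein receptors for degradation. It read 10, 13 and 11 RPKM in untreated cells and 16, 22 and 17 with ATRA, so the lowest ATRA library stood above the highest untreated one. The log2 fold change was 0.68 (SE 0.197, 1.61‐fold, limma adjusted p = 0.0323). It did not pass without untreated replicate 1 (adjusted p = 0.125), untreated replicate 3 (0.085), ATRA replicate 2 (0.122) or ATRA replicate 3 (0.0652), nor without the 4 libraries numbered 2 (0.0646). No annotated gene shares exon bases with MYLIP.

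SREBF1 (ENSG00000072310, chr17:17810399-17837002, minus strand), a known LXR target, read 7, 12 and 7 RPKM untreated and 12, 18 and 13 with ATRA. Its groups touched at 12 RPKM, where untreated replicate 2 met ATRA replicate 1. The log2 fold change of 0.74 (SE 0.255, 1.68‐fold) missed the threshold (limma adjusted p = 0.0627), and passed without untreated replicate 2 (0.0214) and without the 4 libraries numbered 2 (0.00429). The opposite‐strand gene RAI1, which shares 6.75% of the SREBF1 exon bases, went from 5 or 6 RPKM to 4.

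The remaining LXR targets were too low to test. ABCA1, which exports cholesterol to lipoproteins, was listed at 0, 1 and 0 RPKM in untreated cells and at 1, 3 and 2 with ATRA, so its groups touched at 1. NR1H3 was at 1 RPKM in all 9 treated libraries.

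Of the enzymes, ACLY alone had groups that did not overlap, at 85, 93 and 86 RPKM untreated and 67, 80 and 78 with ATRA, with a log2 fold change of -0.23 (SE 0.0972, limma adjusted p = 0.119). Over all tested genes 12.4% lay above and 17.3% below the untreated libraries in this way. FASN read 47, 63 and 48 RPKM untreated and 34, 49 and 44 with ATRA, and the groups overlapped. EBP had a log2 fold change of -0.17 (limma adjusted p = 0.0772), and without untreated replicate 1 it was -0.23 and passed (0.0268). For INSIG1 the log2 fold change was -0.40 with a 95% interval from -1.19 to 0.38, and for HMGCS1 it was -0.30 with an interval from -0.94 to 0.34, both from the fit without the replicate number.

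The other enzymes and regulators, none of them called against untreated cells without the replicate block, had these ranges over the 12 libraries. In the mevalonate pathway, ACAT2 (a cytosolic thiolase) ran from 20 to 31 RPKM, MVK (mevalonate kinase) from 4 to 7, MVD (the decarboxylase that follows PMVK) from 4 to 6, IDI1 (an isomerase of isoprenoid units) from 13 to 23 and FDPS from 52 to 62. In the sterol chain, SQLE (squalene epoxidase) ran from 24 to 39 RPKM, MSMO1 and NSDHL (which remove methyl groups) from 15 to 29 and from 19 to 22, SC5D (a desaturase) from 7 to 11 and DHCR7 (the last reductase of one branch) from 13 to 25. SREBF2 ran from 28 to 39 RPKM, STARD4 (a cytosolic sterol carrier) from 4 to 8 and ACACA (acetyl‐CoA carboxylase) from 8 to 14. With ATRA the log2 fold changes of the 7 mevalonate enzymes lay between -0.30 and 0.11 and those of the 8 sterol enzymes between -0.25 and 0.10. Among the genes below the filter, CYP51A1 and TM7SF2, both of sterol synthesis, were listed at 1 or 2 RPKM, INSIG2 at 3 or 4, and HSD17B7 at 2, 4 and 3 in untreated cells and 4, 5 and 4 with both drugs.

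**Figure D3:**
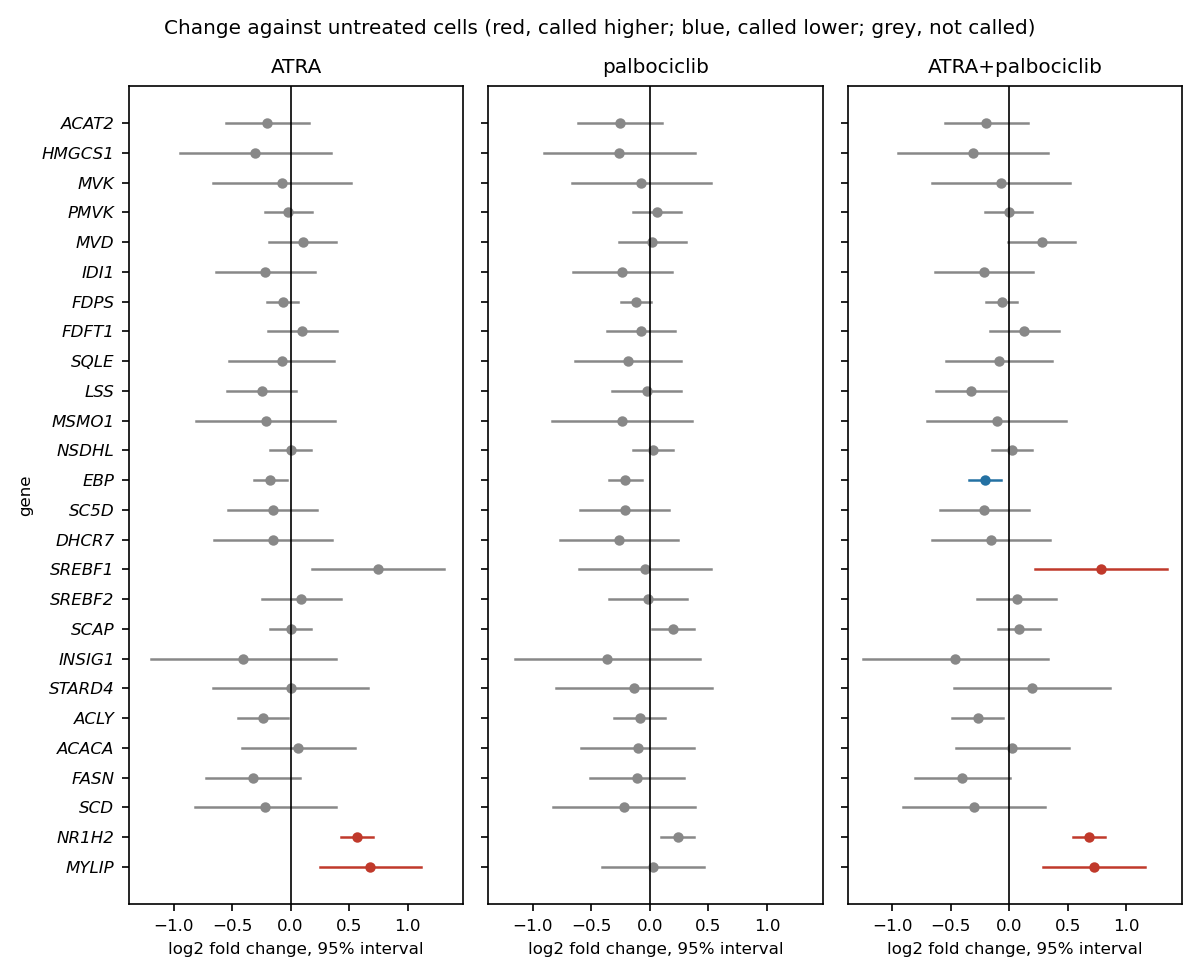
Log2 fold change with its 95% interval (horizontal axis, limma without the replicate block, log2(RPKM + 0.1) scale, 3 against 3 libraries) of the 26 tested genes (vertical axis) for the 3 treatments, each against untreated cells. Coloured points are called, which are NR1H2 and MYLIP with ATRA and NR1H2, MYLIP, SREBF1 and EBP with the combination, and most grey intervals span 0.

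Palbociclib alone raised 0 and lowered 0 of the 26 genes by limma, with 3 at an unadjusted p under 0.05. Over all tested genes 4.07% were called, and 17.4% had an unadjusted p under 0.05. The median log2 fold change was -0.11 over the 26 genes and 0 over all tested genes, and 20 of the 26 lay below 0. The 3 genes were NR1H2, EBP and SCAP, and of the 26 genes NR1H2 alone lay above and EBP alone below every untreated library (5.74% and 9.48% of all tested genes). With the replicate block, 8 of the 26 genes were called lower and 2 higher (8.13% and 5.5% of all tested genes).

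NR1H2 read 14, 12 and 13 RPKM with palbociclib, each above the 11 of the untreated libraries, at a log2 fold change of 0.24 (SE 0.0625, limma adjusted p = 0.0638). Without palbociclib replicate 2 it was 0.29 and passed (0.0354). EBP (ENSG00000147155, chrX:48521799-48528716, plus strand), the isomerase that shifts a double bond in the sterol ring, read 45, 52 and 50 RPKM untreated and 44, 43 and 40 with palbociclib. These groups did not overlap, and the log2 fold change was -0.21 (SE 0.0636, limma adjusted p = 0.0992). SCAP read 11, 11 and 12 RPKM untreated and 13, 12 and 14 with palbociclib, so the groups touched at 12 (log2 fold change 0.19, limma adjusted p = 0.242). MYLIP and SREBF1, at 9, 14 and 12 and at 7, 11 and 7 RPKM, had log2 fold changes of 0.03 and -0.04. Their 95% intervals ran from -0.41 to 0.46 and from -0.60 to 0.52.

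The combination raised 3 of the 26 genes, NR1H2, MYLIP and SREBF1, and lowered 1, EBP. Over all tested genes 30.4% were called against untreated cells. The median log2 fold change was -0.08 over the 26 genes and -0.01 over all tested genes. By role, 1 of 8 sterol enzymes, 1 of 5 genes of the SREBP system, both tested genes of the LXR group, 0 of 7 mevalonate enzymes and 0 of 4 fatty acid enzymes were called. With the replicate block, 9 of the 26 genes were called lower and 4 higher (25.5% and 19.8% of all tested genes).

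NR1H2 read 18, 17 and 18 RPKM with both drugs, a log2 fold change of 0.68 (SE 0.0625, 95% interval 0.54 to 0.82, 1.60‐fold, limma adjusted p = 2.33e-05), which held under all 21 alternatives. MYLIP read 16, 24 and 17 RPKM, a log2 fold change of 0.73 (SE 0.197, 1.65‐fold, limma adjusted p = 0.0177). This call was lost without untreated replicate 1 (0.0758), untreated replicate 3 (0.0524) or combination replicate 2 (0.0687). SREBF1 read 13, 18 and 13 RPKM, each above the untreated maximum of 12, a log2 fold change of 0.78 (SE 0.255, 1.72‐fold, limma adjusted p = 0.0394). Its margin was thin, since leaving out any of 7 single libraries gave an adjusted p between 0.052 and 0.145, those libraries being untreated replicates 1 and 3, the 3 combination replicates, ATRA replicate 3 and palbociclib replicate 3. The call was also lost with a filter at 1 RPKM (limma adjusted p = 0.0846), with no filter (0.089) and with only the compared groups in the fit (0.085), which left 2 of the 26 genes called higher. RAI1 on the other strand was at 3 or 4 RPKM in these libraries.

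EBP read 43, 43 and 41 RPKM with both drugs, below every untreated library, a log2 fold change of -0.21 (SE 0.0636, 0.866‐fold, limma adjusted p = 0.0301). The call was lost without untreated replicate 2 (0.106), untreated replicate 3 (0.0863), combination replicate 2 (0.058) or combination replicate 3 (0.0922), without the 4 libraries numbered 2 (0.239), and with only the compared groups in the fit (0.0723). When libraries were centred on their medians the log2 fold change was -0.13 (0.354). A same-strand gene without a symbol, for which no value was used here, shares 36.4% of the EBP exon bases.

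ACLY, at 66, 78 and 75 RPKM, also lay below every untreated library, with a log2 fold change of -0.27 (SE 0.0972, limma adjusted p = 0.0565), and it passed without ATRA replicate 1 (0.0402) or palbociclib replicate 1 (0.0339). LSS, which closes the sterol ring, read 13, 17 and 14 RPKM untreated and 10, 13 and 12 with both drugs (log2 fold change -0.33, limma adjusted p = 0.0927). FASN read 32, 47 and 41 RPKM (log2 fold change -0.40, limma adjusted p = 0.125). Over all tested genes 15.3% lay above and 20.6% below every untreated library. ABCA1 was listed at 1, 3 and 2 RPKM, the same values as with ATRA alone.

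**Figure D4:**
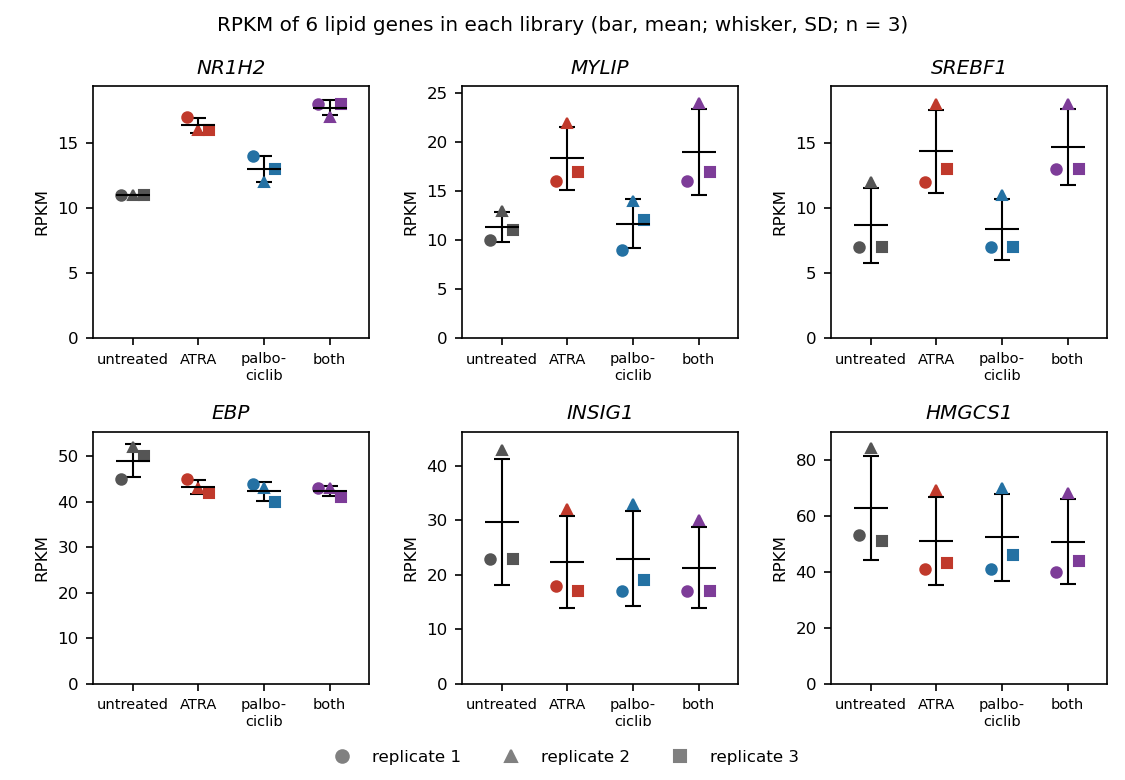
RPKM of NR1H2, MYLIP, SREBF1, EBP, INSIG1 and HMGCS1 in each library (vertical axis from 0, points by replicate number, bar for the mean, whisker for the SD, n = 3) by treatment (horizontal axis, "both" for ATRA+palbociclib). NR1H2 stands at 16 to 18 RPKM with ATRA or both drugs and at 11 to 14 otherwise, while in INSIG1 and HMGCS1 the triangle of replicate 2 stands above the other points of each group.

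Adding palbociclib to ATRA left no called gene among the 26 by limma, 0 higher and 0 lower, with 0 at an unadjusted p under 0.05. Over all tested genes 0.115% were called, 9 genes in all, and 287 had an unadjusted p under 0.05. With the replicate number as a block, which pairs the treated libraries, the count among the 26 was again 0, with 1 at an unadjusted p under 0.05. NR1H2 had a log2 fold change of 0.11 (95% interval -0.03 to 0.25). For MYLIP it was 0.04 (-0.39 to 0.48), for SREBF1 0.04 (-0.52 to 0.60) and for EBP -0.03 (-0.17 to 0.11). Each of these intervals excludes a change as large as that of the same gene for the combination against untreated cells, for EBP by a narrow margin. Those of MYLIP and SREBF1 are wider and, in this fit without the pairing, leave room for moderate changes. With the replicate block the 95% intervals were narrower, at -0.12 to 0.21 for MYLIP and -0.11 to 0.19 for SREBF1. For EBP the block gave -0.17 to 0.10. The interval of NR1H2 was then 0.0054 to 0.22, which excludes 0. NR1H2 was the 1 gene counted above with the block, and it was not called.

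Adding ATRA to palbociclib raised 2 of the 26 genes, NR1H2 and MYLIP, and lowered 0, where 12.5% of all tested genes were called. NR1H2 had a log2 fold change of 0.44 (SE 0.0625, 1.36‐fold, limma adjusted p = 0.00083). MYLIP had one of 0.70 (SE 0.197, 1.62‐fold, limma adjusted p = 0.0415), which was lost under 13 of 21 alternatives, among them 8 that left out 1 library (untreated replicates 1, 2 and 3, ATRA replicate 3, palbociclib replicates 1 and 3, combination replicates 2 and 3), with adjusted p from 0.055 to 0.162. SREBF1 had a log2 fold change of 0.82 (SE 0.255, limma adjusted p = 0.061). It passed without untreated replicate 2 (0.0368) or palbociclib replicate 2 (0.0359). The combination libraries lay above every palbociclib library for 4 of the 26 genes, NR1H2, MYLIP, SREBF1 and MVD, and below for 0. Over all tested genes 8.26% lay above and 9.86% below. MVD was at 5 RPKM in every palbociclib library and at 6 in every combination library.

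With the replicate block, this comparison called 4 of the 26 genes higher and 3 lower, where 23.5% of all tested genes were called. Those higher were NR1H2 (limma adjusted p = 0.000255), MYLIP (0.000228), SREBF1 (5.94e-05) and FDFT1 (0.0038). FDFT1, the enzyme that commits farnesyl diphosphate to sterols, read 53, 68 and 58 RPKM with palbociclib and 61, 76 and 69 with both drugs, higher at every replicate number, with a log2 fold change of 0.20 (SE 0.0359 with the block). The lower ones were LSS (log2 fold change -0.30, adjusted p = 0.00172), FASN (-0.29, 0.0119) and ACLY (-0.18, 0.0187). FASN went from 41, 55 and 50 RPKM with palbociclib to 32, 47 and 41 with both drugs, and ACLY from 73, 89 and 87 to 66, 78 and 75. LSS went from 13, 16 and 14 to 10, 13 and 12.

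The departure from additivity, meaning how far the change on adding palbociclib differed between cells with and without ATRA, was called for 0 of the 26 genes and for 0 of all tested genes (0%) by limma. At an unadjusted p under 0.05 there were 0 of the 26 and 236 of all tested genes. With the replicate block the count stayed at 0 of the 26 and 0 of all tested genes. At an unadjusted p under 0.05 there were then 7 of the 26 and 624 of all tested genes (7.98%). NR1H2 had a departure of -0.12 (95% interval -0.32 to 0.07), MYLIP one of 0.01 (-0.60 to 0.63), SREBF1 one of 0.08 (-0.72 to 0.88) and EBP one of 0.18 (-0.02 to 0.37), all on the log2 scale.

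Beyond the 33 genes, 52 further genes of the same pathways were listed, of which 51 had a value and 32 were tested. ATRA raised 2 and lowered 6 of the 32, palbociclib raised 0 and lowered 3, and the combination raised 3 and lowered 8. Over all tested genes 8.71%, 0.908% and 12.7% were called higher in these comparisons, and 11.6%, 3.16% and 17.7% lower. The median log2 fold changes over the 32 genes were -0.09, -0.06 and -0.10. Replicate 2 was highest in all 4 groups for 6 of the 32 (18.8%), among them ACSL3, ACSL4, HSD17B12, ME1 and MID1IP1.

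ACSL1, which activates long‐chain fatty acids for lipid synthesis and oxidation, read 13, 12 and 13 RPKM untreated, 28, 38 and 39 with ATRA, 11, 12 and 13 with palbociclib, and 29, 37 and 36 with both drugs. All 6 libraries with ATRA stood above the 6 without it. Its log2 fold change was 1.44 with ATRA (SE 0.132, 2.72‐fold, limma adjusted p = 3.27e-05) and 1.41 with both drugs (2.55e-05), larger than that of any of the 26 genes.

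TMEM97, a sterol‐responsive membrane protein of cholesterol trafficking, fell with each treatment. It read 26, 27 and 26 RPKM untreated, 18, 17 and 16 with ATRA, 18, 19 and 17 with palbociclib, and 16, 14 and 13 with both drugs, and no treated library reached an untreated one. The log2 fold changes were -0.63 (limma adjusted p = 0.000303), -0.55 (0.00371) and -0.88 (2.06e-05).

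HACD3, a dehydratase of very long chain fatty acid elongation, read 23, 21 and 22 RPKM untreated, 17, 15 and 15 with ATRA, 16, 15 and 15 with palbociclib, and 14, 13 and 12 with both drugs. Its log2 fold changes were -0.49 (limma adjusted p = 0.000958), -0.52 (0.00358) and -0.76 (3.54e-05). ERLIN1, an endoplasmic reticulum protein that binds cholesterol and restrains SREBP, read 29, 29 and 30 RPKM untreated, 20, 19 and 22 with ATRA, 29, 28 and 31 with palbociclib, and 19, 17 and 20 with both drugs. It fell with ATRA (-0.53, limma adjusted p = 0.000621) and with both drugs (-0.65, 0.000101). The difference between combination and palbociclib was -0.65 (0.000197).

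OSBP, an oxysterol binding protein, read 21, 22 and 20 RPKM untreated and 23, 29 and 28 with ATRA (log2 fold change 0.34, limma adjusted p = 0.0381). With palbociclib it read 24, 27 and 27 RPKM, without a call, and with both drugs 25, 30 and 30 (log2 fold change 0.43, limma adjusted p = 0.00915). Every treated library thus stood above every untreated one. The ATRA call was lost without any of untreated replicates 1 to 3, ATRA replicates 2 and 3, or palbociclib replicates 2 and 3 (limma adjusted p from 0.0524 to 0.139). The call with both drugs held under 19 of 21 alternatives. Without the 4 libraries numbered 2, the palbociclib calls of TMEM97 (0.162) and HACD3 (0.153) and the ATRA calls of HACD3 (0.057) and OSBP (0.262) were lost. The OSBP call with both drugs was then lost too (0.116).

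**Figure D5:**
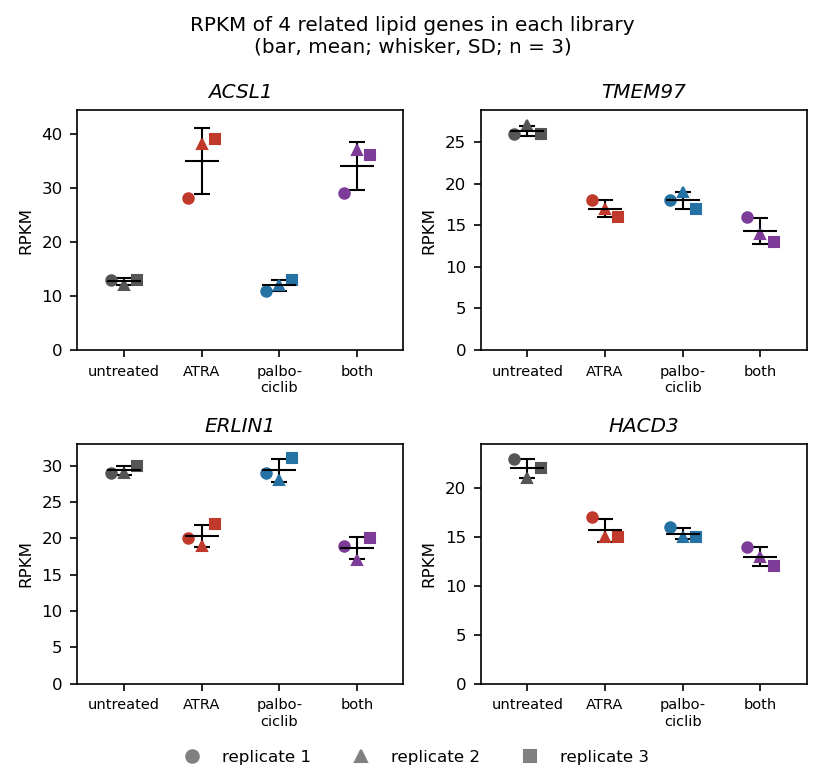
RPKM of ACSL1, TMEM97, ERLIN1 and HACD3 in each library (vertical axis from 0, points by replicate number, bar for the mean, whisker for the SD, n = 3) by treatment (horizontal axis, "both" for ATRA+palbociclib). ACSL1 and ERLIN1 separate the ATRA and combination libraries from the rest, whereas TMEM97 and HACD3 are lower in all 9 treated libraries.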

How the data were processed

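HL‐60 cells were sequenced as poly(A) TruSeq libraries. The authors mapped reads to hg38 with HISAT2, counted them with htseq-count in default settings and deposited a score, here RPKM rounded to whole numbers, for 58233 genes. Tool versions, annotation release and gene lengths behind RPKM are not given in the sources used here. The depth per library is unknown, so errors are SDs over 3 libraries. Samples were grouped by title.

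From these values, log2(RPKM + 0.1) was fitted with limma 3.58.1 in R 4.3.3 (1 mean per group over all 12 libraries, eBayes with trend) for genes at 5 RPKM or more in at least 3 libraries, with Benjamini-Hochberg adjustment over the 7820 tested genes and a threshold of 0.05. The study's own voom test needs counts and was not repeated. Figures used Python 3.11.15 with matplotlib 3.10.9.

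Same-numbered libraries were checked by correlating deviations from group means over tested genes. All 9 pairs of treated libraries exceeded 0.1 (0.438 to 0.908), so numbers were taken to pair them, while 6 of 9 pairs with untreated libraries did (0.0453 to 0.367). The replicate block was fitted for every comparison. The members and gene lists, and the rule for naming further genes (at most the 5 largest log2 changes called per comparison against untreated cells), were chosen with earlier results of these data known. Coordinates and exons are GENCODE v44 on GRCh38, and promoters are RefSeq sequences. The fit was tested on simulated data. Some genes called within the listed pathways and one marker are not reported here.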

Additional observations from a re-analysis of the deposited data

How the results depend on the processing

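Under 21 alternatives no direction reversed among the counts and named genes. With NR1H2 the calls with ATRA, with both drugs and for both drugs against palbociclib held under every one. Other calls moved as follows. With a filter at 1 RPKM (14003 genes, 32 of the 33 genes) and with no filter (15220 genes), the lipid genes called higher with ATRA and with both drugs against palbociclib each became 1. The calls over all genes became 41 for both drugs against ATRA under either filter, and 90 and 89 for the departure from additivity. At a threshold of 0.001, the counts over all genes were 369 (ATRA), 39 (palbociclib), 629 (both drugs), 0 (both against ATRA) and 243 (both against palbociclib). At that threshold 1 lipid gene was called higher with ATRA, with both drugs and for both against palbociclib, and 0 lower with both drugs. With only the compared groups in the fit, 199 genes (palbociclib), 27 (both against ATRA) and 620 (both against palbociclib) were called, and 0 lipid genes lower with both drugs. Median centring, which shifted libraries by -0.07 to 0.05 on the log2 scale, gave 198 genes (palbociclib), 3 (both against ATRA) and 0 lipid genes lower with both drugs.

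With the replicate block, 2767 genes were called with ATRA, 1066 with palbociclib, 3538 with both drugs, 51 for both against ATRA and 1839 for both against palbociclib. Among the 26 tested lipid genes 9 were then called lower with ATRA, 8 with palbociclib and 9 with both drugs. Of all tested genes 20.7%, 8.13% and 25.5% were called lower in these comparisons. Those lower in all 3 were ACAT2, EBP, HMGCS1, INSIG1 and SCD. With ATRA, INSIG1 had a log2 fold change of -0.40 (limma adjusted p = 0.000343 with the block) and HMGCS1 one of -0.30 (0.00103). Those higher numbered 3, 2 and 4, where 14.7%, 5.5% and 19.8% of all tested genes were called higher. For both drugs against palbociclib 4 were higher and 3 lower (10.1% and 13.4% of all tested genes). Numbers are not shown to pair untreated with treated libraries, although in all 9 pairings each untreated library correlated best with its own number, a hint from the data and not from the design. Over the lipid genes alone, the deviations of same-numbered untreated and treated libraries correlated at 0.449 to 0.939 in the 9 pairs, a description across genes that share these libraries.

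Without the 4 libraries numbered 2, an alternative chosen after seeing the data, 485 genes (ATRA), 18 (palbociclib), 1014 (both drugs), 0 (both against ATRA) and 243 (both against palbociclib) were called, and INSIG1 was the 1 lipid gene lower with ATRA and the 1 lower with both drugs, where EBP lost its call (limma adjusted p = 0.239). Fewer libraries entered this fit. When single libraries were left out, the calls over all genes ran from 1071 to 1758 (ATRA), 173 to 302 (palbociclib), 1754 to 2521 (both drugs), 3 to 13 (both against ATRA), 666 to 1042 (both against palbociclib) and 0 to 1 (additivity). Lipid genes called higher ran from 1 to 3, 0 to 1, 1 to 4, 0 to 0, 1 to 3 and 0 to 0 in that order, and lower from 0 to 1, 0 to 0, 0 to 2, 0 to 0, 0 to 0 and 0 to 0. The cause of these changes was not tested. Rounding to 1 RPKM limits genes below about 5 RPKM, and no counting error can be given.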

Other observations

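Some lipid genes share sequence with others. Of the 33 genes, 8 share exon bases with another protein-coding gene in GENCODE v44, and 5 have pseudogenes that carry their name, namely FDPS (8), IDI1 (3), CYP51A1 (3), HSD17B7 (3) and SCD (1). CYP51A1 was listed at 1 or 2 RPKM and shares 68.2% of its exon bases with a same-strand gene that the authors' list does not hold. The authors' annotation release is not given, so whether this overlap affected its level cannot be told. ACAT2 shares 17.2% of its exon bases with TCP1 on the opposite strand.

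A few further genes of the listed pathways were called outside the naming rule and were chosen after their values were seen. ELOVL1, an elongase of long saturated fatty acids, read 24, 26 and 25 RPKM untreated, 21, 21 and 22 with ATRA, 25, 26 and 25 with palbociclib, and 20, 21 and 20 with both drugs, so it separated the ATRA libraries from the others. It fell by 0.23 on the log2 scale with ATRA (limma adjusted p = 0.00879) and by 0.30 with both drugs (0.00131). LPL, lipoprotein lipase, read 70, 61 and 63 RPKM untreated and 57, 48 and 47 with both drugs (log2 fold change -0.35, limma adjusted p = 0.0122), and RNF139, a sterol-sensing ubiquitin ligase, 14, 13 and 14 untreated and 17, 17 and 16 with both drugs (0.28, 0.00653). ELOVL6, which extends palmitate, read 6, 7 and 6 RPKM untreated and 5 in every combination library (-0.33, 0.0352). The ELOVL1 call with ATRA was lost with median centring (limma adjusted p = 0.136) and without the 4 libraries numbered 2 (0.0979), its call with both drugs with median centring (0.0609), and the RNF139 call without the 4 libraries numbered 2 (0.131). The LPL call with both drugs was lost without untreated replicate 1 or combination replicate 3, and the ELOVL6 call without untreated replicates 1 or 2 or any combination replicate (limma adjusted p up to 0.129 and 0.143 over all alternatives).

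With the filter at 1 RPKM, which admits 6 of the 7 low lipid genes, ABCA1 had a log2 fold change of 3.12 with ATRA (limma adjusted p = 0.134). That value rests on libraries listed at 0 and on the added 0.1, and is no measure of the size of the change.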
